A study of Mus musculus with 32 samples.

Results

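The 35 genes described here act in the first steps of B lymphocyte development: V(D)J recombination, the surrogate light chain, the receptor chains, cytokine receptors, and the transcription factors and signalling proteins of early B cells. They were taken by symbol from the deposited gene tables, in which all 35 had a row among 55487 gene identifiers. Of these, 29 passed a filter on low counts that left 14869 genes for testing. The other 6 (Vpreb2, Bach2, Lef1, Blk, Cd22 and Pou2af1) had too few reads and are given as counts. The cells were progenitors from mouse fetal liver immortalised with ER-HOXB8, a form of the HOXB8 homeobox protein that estradiol switches on, and grown in medium with estradiol, G418 and SCF-conditioned medium. The mutant line, hi-77-/-, lacked an upstream enhancer of Gata2, and the wild-type line, hi-77+/+, carried it. Each line was exposed for 4 h to interferon gamma (IFNg, 1 ng/ml), to Pam3CSK4 (100 ng/ml), a lipopeptide that activates TLR2 with TLR1, to both, or to vehicle, with 4 libraries in each of the 8 groups. Each genotype was a single line, and it is not stated in the labels if libraries of 1 group stem from separate cultures. P-values therefore measure only the spread between these libraries.

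B cell development starts in lymphoid-primed progenitors that carry the receptors Flt3 and Il7r. The factors Tcf3, Ebf1, Foxo1 and Pax5 then act in succession, and the Rag1 and Rag2 recombinase joins gene segments of the heavy chain locus while Dntt adds bases at the joints. A finished mu heavy chain (Ighm) pairs with the surrogate light chain, made of Igll1 and a Vpreb protein, and with Cd79a and Cd79b to form the pre-B cell receptor, which signals through Syk, Blnk and Btk.

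Promoters of 4 genes are shown because Rag1 and Igll1 had the largest differences between the lines with vehicle among genes at 1 CPM or more that were higher in mutant cells, and Rag2 and Vpreb1 lie beside them. Each run is 300 bases, from 250 before to 50 after the start given by RefSeq on GRCm38.p6, on the strand of the gene. Capitals mark CAGGTG (searched on both strands, so also as CACCTG) and CAGCTG, a pair of E-box words of the kind that E2A proteins bind, and CCCNNGGG, a core word of Ebf1 sites. The regions are chr16:16863936-16864235 (minus strand) for Igll1, chr16:16869206-16869505 (minus) for Vpreb1, chr2:101649483-101649782 (minus) for Rag1 and chr2:101624462-101624761 (plus) for Rag2.
Igll1: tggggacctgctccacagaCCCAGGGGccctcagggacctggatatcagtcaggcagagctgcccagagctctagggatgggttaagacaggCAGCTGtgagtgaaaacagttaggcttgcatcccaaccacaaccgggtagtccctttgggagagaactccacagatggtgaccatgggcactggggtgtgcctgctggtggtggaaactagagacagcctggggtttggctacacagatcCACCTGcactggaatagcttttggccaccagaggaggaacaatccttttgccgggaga
Vpreb1: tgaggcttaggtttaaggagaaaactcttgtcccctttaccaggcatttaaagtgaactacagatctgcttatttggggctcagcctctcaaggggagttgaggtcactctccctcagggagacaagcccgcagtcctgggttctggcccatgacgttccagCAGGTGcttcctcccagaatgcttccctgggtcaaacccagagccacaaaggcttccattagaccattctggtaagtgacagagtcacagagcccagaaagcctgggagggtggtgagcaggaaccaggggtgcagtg
Rag1: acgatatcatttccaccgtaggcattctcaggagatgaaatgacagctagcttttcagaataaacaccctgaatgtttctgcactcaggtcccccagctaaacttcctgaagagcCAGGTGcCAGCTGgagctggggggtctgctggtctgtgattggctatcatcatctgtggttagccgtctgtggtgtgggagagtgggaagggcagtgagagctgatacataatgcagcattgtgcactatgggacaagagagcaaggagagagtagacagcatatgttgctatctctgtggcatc
Rag2: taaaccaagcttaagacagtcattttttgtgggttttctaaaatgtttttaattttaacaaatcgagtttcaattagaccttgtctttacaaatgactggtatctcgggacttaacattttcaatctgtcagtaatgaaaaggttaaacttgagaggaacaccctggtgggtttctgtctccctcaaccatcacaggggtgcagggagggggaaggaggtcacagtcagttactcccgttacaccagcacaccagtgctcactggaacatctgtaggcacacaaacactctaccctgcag
The Igll1 promoter held 1 match of each word and the Rag1 promoter 1 match each of CAGGTG and CAGCTG. The Vpreb1 promoter held 1 match of CAGGTG, and none of the 3 words stood in the Rag2 window. Of the 35 genes, 30 had at least 1 promoter in the table, 37 promoters in all. CAGGTG stood in a promoter of 9 of the 30 genes (Blnk, Cd22, Cd79a, Igll1, Lef1, Rag1, Syk, Vpreb1 and Vpreb2), CAGCTG in 6 and CCCNNGGG in 6. Counted by promoter, 10 of the 37 held CAGGTG, 6 CAGCTG and 6 CCCNNGGG. Over all 32851 promoters of this length, 20.2% held CAGGTG, 16.3% CAGCTG and 13.7% CCCNNGGG. A match is a run of letters and not a measured binding site.

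The 32 libraries held 44.18 to 71.42 M expected counts each and detected 17427 to 21034 genes. Gata2 averaged 7.52 ± 0.679 CPM (counts relative to the library size after TMM scaling) in mutant vehicle libraries and 43.4 ± 8.27 CPM in wild-type vehicle libraries (SD, n = 4 each). Of 10 markers of blood progenitors, 10 reached 1 CPM on average in mutant and 9 in wild-type libraries, with Cd48 at 0.376 CPM in wild-type cells. Markers of mature B cells were low in both lines. Their summed level over 6 genes was 0.214 to 2.81 CPM in mutant and 0.0197 to 0.371 CPM in wild-type libraries. None averaged 1 CPM over the 16 libraries of a line. By group, however, Fcer2a averaged 2.1 CPM with Pam3CSK4 and 1.17 CPM with both agents in mutant cells, and it had no counts with vehicle. The 12 T cell markers summed to 7.76 to 9.38 CPM in mutant and 3.81 to 6.24 CPM in wild-type libraries, most of it from Gata3 and Lck in mutant and from Lck in wild-type cells, and Cd3e had no counts. The 7 markers of NK and innate lymphoid cells stayed at or under 0.552 CPM in sum in every library, with Ncr1 and Gzma at 0. Markers of plasmacytoid dendritic cells summed to 93.8 to 136 CPM in mutant and 84.6 to 134 CPM in wild-type libraries, almost all from Bst2, Tcf4 and Irf7, which other cells also express, while Klk1 had no counts. Hepatocyte markers stayed at or under 0.304 CPM in sum. Stromal and endothelial markers summed to 14.6 to 30.8 CPM in mutant and 23.9 to 44.7 CPM in wild-type libraries, with Col3a1 at 0. Almost all of this came from Pdgfrb (14.0 CPM in mutant, 31.2 CPM in wild-type) and Pecam1 (6.72 and 2.74 CPM). Col1a1, Cdh5 and Kdr averaged under 1 CPM in both lines. The part of other cell types in the results below was not tested beyond these levels. RNA was measured in bulk, so fewer cells of a type and less RNA per cell cannot be told apart.

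With vehicle, mutant cells had more RNA for the recombinase, the surrogate light chain, the signalling chains Cd79a and Cd79b and the receptors Il7r and Flt3 than wild-type cells, and less for the heavy chain gene Ighm and the regulators Ikzf3, Bcl11a and Tcf3. Of the 29 tested genes, 27 differed between the lines (edgeR quasi-likelihood test, Benjamini-Hochberg adjusted p under 0.05), 23 higher and 4 lower in mutant cells. The test called 53.7% of all 14869 genes in this comparison, 24.4% of them as higher and 29.3% as lower. The median log2 fold change was 1.22 over the 29 genes and -0.01 over all tested genes. Among the 27, the Ikzf1 libraries of the lines overlapped. How often libraries overlap over all genes was not counted, so overlap is given only gene by gene below. At least 2-fold changes numbered 15 higher and 3 lower among the 29, against 14.1% of all genes in either direction. Pax5, Vpreb3 and Vpreb1 passed the count filter through their mutant groups, so they had to be higher there, Spib passed through its mutant Pam3CSK4 group, and Ikzf3 through its wild-type groups.

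The V(D)J recombinase gene Rag1 (ENSMUSG00000061311.6, mm10 chr2:101638282-101649501, minus strand) stood at 115, 114, 112 and 114 CPM in mutant vehicle libraries, against 2.17, 2.21, 2.02 and 2.67 CPM in wild-type vehicle libraries. Every mutant library was far above every wild-type one, 50.6-fold in the fit (log2 5.66 ± 0.06 SE, adjusted p = 5.6e-39). Its partner Rag2, which lies beside it on the opposite strand (chr2:101624718-101632529), stood at 91.8, 87.1, 84.4 and 85.7 CPM in mutant libraries, against 30.8, 26.2, 23.4 and 25.9 CPM in wild-type libraries. This was 3.3-fold (log2 1.72 ± 0.05, adjusted p = 5.6e-25), so wild-type cells held clear Rag2 RNA with little Rag1 RNA. In deposited TPM, which divides by transcript length, mutant vehicle libraries had 10.4 TPM of Rag2 and 5.46 TPM of Rag1, and wild-type vehicle libraries 3.35 TPM of Rag2 and 0.11 TPM of Rag1. The transcript B230118H07Rik shares 6.07% of the Rag2 exon bases on the opposite strand and 1.21% of the Rag1 exon bases on the same strand, and averaged 5.09 CPM in mutant and 0.842 CPM in wild-type libraries. Dntt, the terminal transferase that adds bases at V(D)J joints, stood at 31.0, 28.6, 29.2 and 29.4 CPM in mutant vehicle libraries, against 4.87, 4.97, 4.38 and 5.39 CPM in wild-type ones. The groups did not overlap (log2 2.60 ± 0.06, adjusted p = 1.3e-27).

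**Figure D1:**
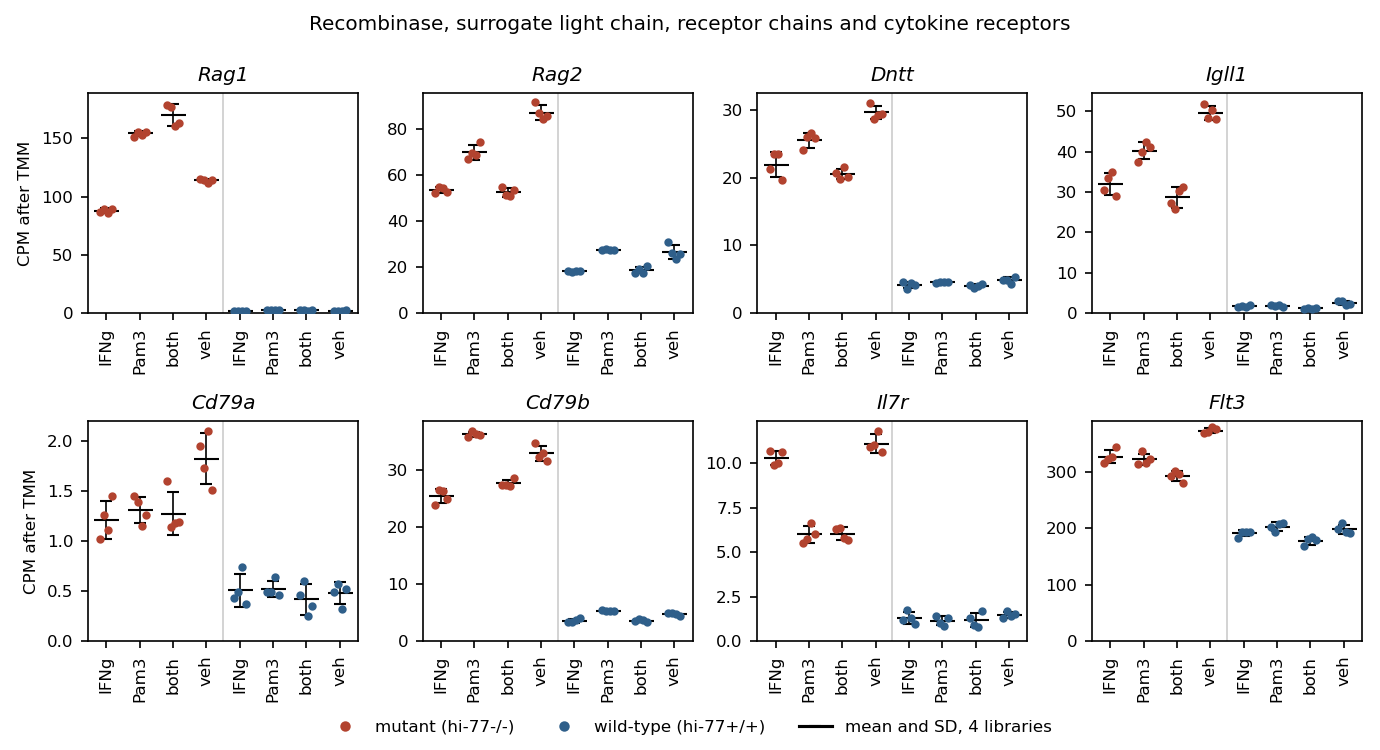
CPM after TMM scaling of 8 genes in all 32 libraries, with mutant groups on the left of each panel (red) and wild-type groups on the right (blue); veh is vehicle, both is IFNg plus Pam3CSK4, and bars are the mean and SD of 4 libraries. In all 8 panels the mutant libraries lie above the wild-type libraries, and Rag1 reaches its highest mutant mean, 170 CPM, with both agents.

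Igll1 encodes the lambda5 part of the surrogate light chain, whose promoter was shown above with 1 match of each of the 3 words. It stood at 51.8, 48.2, 50.2 and 48.1 CPM in mutant vehicle libraries, against 2.94, 2.97, 2.07 and 2.31 CPM in wild-type ones (log2 4.27 ± 0.09, adjusted p = 2.7e-29). Its neighbour on chromosome 16, Vpreb1, which encodes the other part, was low in both lines. Vpreb1 averaged 0.65 ± 0.0721 CPM in mutant and 0.0991 ± 0.0524 CPM in wild-type vehicle libraries (log2 2.70 ± 0.34). It passed the count filter through its mutant groups, so it had to be higher there. Of the 75-base stretches in Vpreb1 transcripts, 10.9% also occur in Vpreb2, so reads of these near copies may be split between them. Of the Vpreb1 exon bases, 9.01% overlap the opposite-strand gene Top3b, which averaged 62.2 CPM in mutant and 69.8 CPM in wild-type libraries. Whether the counting kept strand is not given. Vpreb2 had 30 counts in the 4 mutant vehicle libraries and no counts in any of the 16 wild-type libraries. With a floor of 3 counts over the wild-type vehicle group, this is at least 9.29-fold higher in mutant cells. Vpreb3, a relative that binds newly made receptor chains, averaged 0.909 ± 0.136 CPM in mutant and 0.033 ± 0.0425 CPM in wild-type vehicle libraries. The mutant cells thus held much Igll1 RNA beside little RNA of the 3 Vpreb genes: 23.8 TPM of Igll1, against 0.37, 0.0775 and 0.70 TPM of Vpreb1, Vpreb2 and Vpreb3.

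The signalling chains of the B cell receptor were higher in mutant cells at unequal levels. Cd79b stood at 34.7, 32.2, 33.0 and 31.6 CPM in mutant vehicle libraries, against 4.95, 4.94, 4.74 and 4.48 CPM in wild-type ones (log2 2.78 ± 0.05, adjusted p = 4.3e-31). Its partner Cd79a stood at 1.95, 1.73, 2.10 and 1.51 CPM in mutant libraries, against 0.493, 0.573, 0.321 and 0.524 CPM in wild-type libraries (log2 1.94 ± 0.21, adjusted p = 8.2e-10). Per length, mutant vehicle libraries had 10.0 TPM of Cd79b and 0.453 TPM of Cd79a. Ighm, the mu heavy chain constant gene, went the other way with vehicle: 0.698, 0.662, 0.649 and 0.691 CPM in mutant libraries, against 1.77, 2.14, 1.33 and 1.45 CPM in wild-type libraries. No library of one line reached the range of the other (log2 -1.31 ± 0.17, adjusted p = 5.3e-08).

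Among receptors, Il7r, which receives the growth signal of interleukin 7, stood at 10.9, 11.0, 11.8 and 10.6 CPM in mutant vehicle libraries, against 1.32, 1.67, 1.39 and 1.55 CPM in wild-type ones (log2 2.90 ± 0.15, adjusted p = 6.7e-18). Flt3, the FLT3 ligand receptor of early progenitors, had the highest level per length of the 35 genes in both lines (33.4 TPM in mutant and 18.4 TPM in wild-type vehicle libraries). Its CPM were 373 ± 5.09 CPM in mutant and 198 ± 8.24 CPM in wild-type vehicle libraries (log2 0.91 ± 0.04, adjusted p = 6.3e-22). Cd93, a surface marker of early B lineage cells that other progenitors also carry, stood at 73.9, 72.0, 76.3 and 75.7 CPM in mutant vehicle libraries, against 23.9, 25.6, 25.4 and 24.9 CPM in wild-type ones (log2 1.58 ± 0.04). These groups were far apart. Cd72, an inhibitory co-receptor of B cells, stood at 42.3, 40.3, 40.9 and 42.0 CPM in mutant libraries, against 12, 10.4, 12.8 and 12.7 CPM in wild-type ones (log2 1.79 ± 0.05). Of the Cd72 exon bases, 41.6% overlap the opposite-strand gene Tesk1, which averaged 15.1 CPM in mutant and 8.84 CPM in wild-type libraries. The libraries kept strand, but no source used here says if the counting did.

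The transcription factors did not move as a block. Ebf1, which commits cells to the B lineage, stood at 73.1, 70.6, 68.8 and 76.1 CPM in mutant vehicle libraries, against 30.5, 32.8, 33.0 and 27.3 CPM in wild-type ones (log2 1.22 ± 0.05, adjusted p = 5.9e-22). Pax5, the factor that keeps B cell identity, was barely detected and passed the count filter through its mutant groups. It had 109 counts in the 4 mutant vehicle libraries and 3 in the 4 wild-type ones. The ratio was 33.8 with a 95% counting interval of 11.2 to 166. Per length, mutant vehicle libraries had 4.10 TPM of Ebf1 beside 0.02 TPM of Pax5. Foxo1, an activator of the recombinase genes, averaged 2.65 ± 0.369 CPM in mutant and 1.33 ± 0.297 CPM in wild-type libraries (log2 0.99 ± 0.18, adjusted p = 1.2e-05). Pou2f2, the octamer factor Oct-2, stood at 3.60, 2.61, 2.90 and 3.45 CPM in mutant libraries, against 0.709, 0.405, 0.769 and 0.691 CPM in wild-type ones (log2 2.3 ± 0.16, adjusted p = 9.4e-15). Sox4, a survival factor of pro-B cells, was higher by log2 0.61 ± 0.03, at 178 ± 6.07 CPM in mutant and 117 ± 1.37 CPM in wild-type libraries. Of its exon bases 54.6% overlap the opposite-strand model Gm26735, which averaged 0.15 CPM in mutant and 0.137 CPM in wild-type libraries.

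Factors that were lower in mutant cells included members of the same lymphoid network. Ikzf3 (Aiolos), a zinc finger factor of later precursor B cells, stood at 0.0974, 0.0427, 0.0832 and 0.112 CPM in mutant vehicle libraries, against 1.28, 2.11, 1.96 and 1.88 CPM in wild-type ones. The log2 fold change was -4.36 ± 0.30. Ikzf3 passed the count filter through its wild-type groups, so it could be called only as lower in mutant cells. Bcl11a, which early lymphoid progenitors need, stood at 2.90, 2.95, 2.36 and 2.18 CPM in mutant libraries, against 5.81, 6.26, 7.45 and 6.93 CPM in wild-type ones (log2 -1.35 ± 0.10, adjusted p = 1.9e-13). Tcf3, the gene of the E2A proteins, fell less, with 55.3 ± 4.53 CPM in mutant and 72.6 ± 12 CPM in wild-type libraries (log2 -0.39 ± 0.09, adjusted p = 0.00085). Ikzf1 (Ikaros), the relative of Ikzf3 that acts from the earliest lymphoid stage, was abundant in both lines, at 192 ± 5.61 CPM in mutant and 178 ± 10.2 CPM in wild-type libraries (log2 0.11 ± 0.03, adjusted p = 0.00234), and its libraries overlapped. Spib, an ETS factor, was at or under 0.128 CPM in every vehicle library and did not pass the test.

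**Figure D2:**
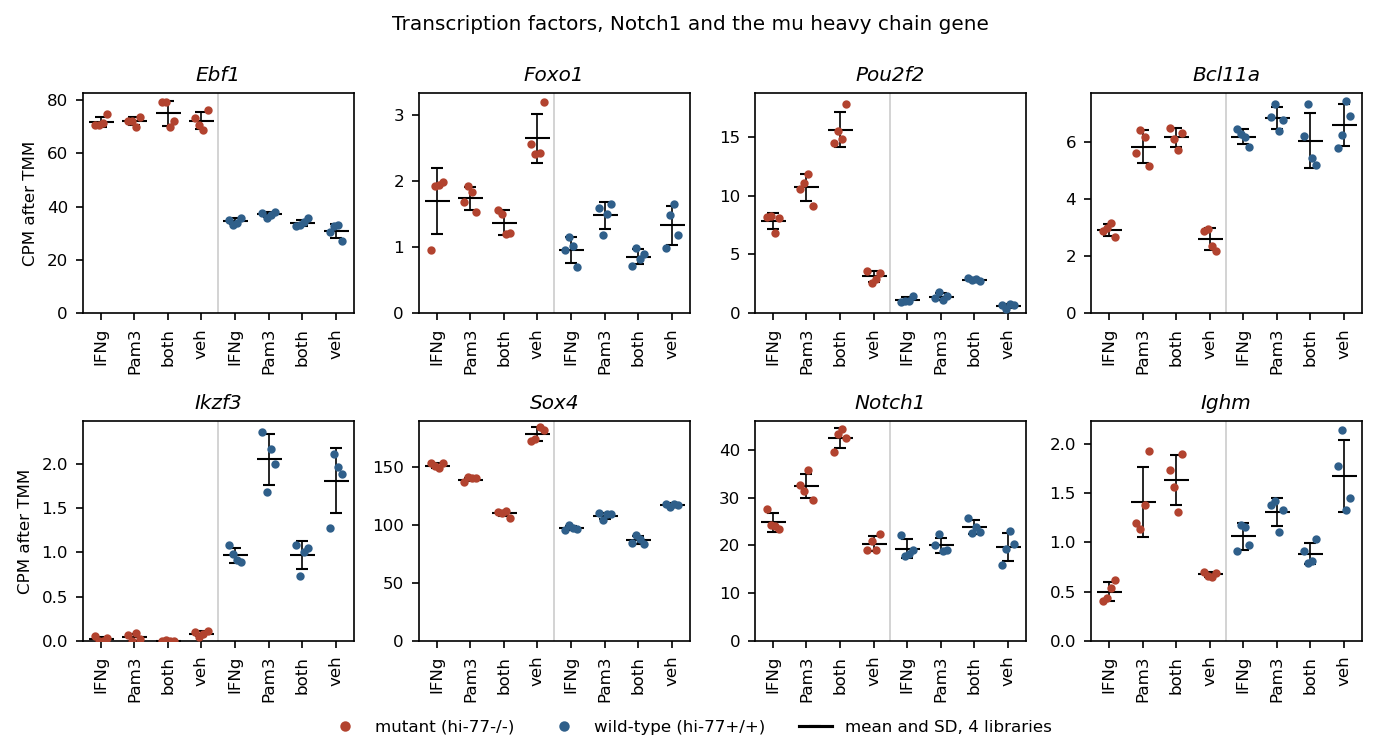
CPM after TMM scaling of 6 transcription factor genes, Notch1 and Ighm in all 32 libraries, drawn as 4 mutant groups (red) left of 4 wild-type groups (blue); veh is vehicle, both is IFNg plus Pam3CSK4, and bars are the mean and SD of 4 libraries. Bcl11a, Notch1 and Ighm rise with Pam3CSK4 in mutant libraries, Pou2f2 rises with every agent in both lines, and Ikzf3 is near 0 in mutant libraries.

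Among signalling genes, the differences with vehicle were small for the kinases and larger for the adaptors Blnk and Lax1. Syk and Btk, kinases of the receptor pathway, were higher in mutant cells by log2 0.24 ± 0.03 (125 ± 3.02 CPM, against 106 ± 3.85 CPM in wild-type) and 0.14 ± 0.03 (86.5 ± 2.86 CPM, against 78.3 ± 3.34 CPM in wild-type). Their adaptor Blnk was higher by log2 1.41 ± 0.20, at 1.09, 1.03, 1.08 and 0.931 CPM in mutant libraries, against 0.296, 0.438, 0.497 and 0.286 CPM in wild-type ones. Lax1, an adaptor that dampens antigen receptor signals, was higher by log2 0.87 ± 0.18, and Rhoh, a GTPase of blood cells, by 0.24 ± 0.04. Notch1, the receptor that steers progenitors to the T lineage, averaged 20.4 ± 1.63 CPM in mutant and 19.6 ± 2.91 CPM in wild-type libraries and did not pass the test (log2 0.05 ± 0.09, adjusted p = 0.648). Of the untested genes, Cd22, an inhibitory co-receptor, had 7 counts in mutant vehicle libraries and none in wild-type ones, Bach2, a repressor, 5 and 1, and Pou2af1, the partner of Pou2f2, 6 and 3. Blk, a kinase of B cells, had 2 counts in mutant vehicle libraries and none in any wild-type library. Lef1, a factor of pro-B cells, had none with vehicle in either line. At such counts a difference between the lines was not detectable for Bach2 and Pou2af1, whose counting intervals for the ratio were 0.52 to 220 and 0.397 to 11.5.

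The genotype difference was then read under each agent. Of the 29 genes, 26 differed between mutant and wild-type cells with IFNg, 23 higher and 3 lower, where 53.1% of all genes differed (25.7% higher, 27.4% lower). With Pam3CSK4 24 differed, 20 higher and 4 lower, beside 65.6% of all genes (32.1% higher, 33.5% lower). With both agents 26 differed, 23 higher and 3 lower, beside 60.2% of all genes (30.5% higher, 29.7% lower). The median log2 fold changes were 1.06, 1.16 and 1.15, and each of these comparisons had its own 8 libraries. All set the same mutant line against the same wild-type line, so their agreement does not replicate the genotype difference. In all 4 treatments these genes were called higher in mutant cells: Rag1, Rag2, Dntt, Igll1, Vpreb1, Vpreb3, Ebf1, Pax5, Il7r, Cd79a, Cd79b, Blnk, Sox4, Cd72, Cd93, Pou2f2 and Flt3. Of them, Vpreb1, Vpreb3 and Pax5 passed the count filter through mutant groups and had to be higher. Ikzf3 was lower in all 4, but it passed the filter through wild-type groups. Spib was called higher in mutant cells with Pam3CSK4 and with both agents, and passed the filter through its mutant Pam3CSK4 group. With Pam3CSK4 Spib therefore had to be higher, and the counts above include all these genes. The share of all genes called in 1 direction in all 4 treatments was not counted. Ighm and Btk were called in opposite directions under different agents. Ighm was lower in mutant cells with vehicle and with IFNg (log2 -1.07 ± 0.19) but higher under the combination (0.88 ± 0.17, adjusted p = 2.6e-05). Btk was higher with vehicle and IFNg and lower by 0.09 ± 0.03 with Pam3CSK4 and by 0.08 ± 0.03 with both.

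Rag1 showed the greatest of these differences apart from genes near the detection limit: log2 5.46 ± 0.06 under IFNg, 5.70 ± 0.05 under Pam3CSK4 and 6.04 ± 0.06 under the combination. Vpreb3 was estimated at log2 6.87 ± 0.64 with both agents, from 170 counts in mutant libraries and 1 in wild-type ones. That is a ratio of 176 with a counting interval of 31.1 to 6973. Pax5 had 72 counts in mutant and 3 in wild-type libraries with IFNg (ratio 26.1, interval 8.57 to 129), and 127 and 3 with Pam3CSK4 (ratio 46.5, interval 15.5 to 228). Vpreb2 was at least 6.52-fold higher in mutant cells with IFNg, 9.15-fold under Pam3CSK4 and 4.82-fold under both. Ikzf3 had 1 count in the 4 mutant libraries with both agents and 229 in the wild-type ones, 222-fold lower with an interval of 39.4 to 8798. The directions of Vpreb3, Pax5 and Ikzf3 were fixed by the count filter.

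**Figure D3:**
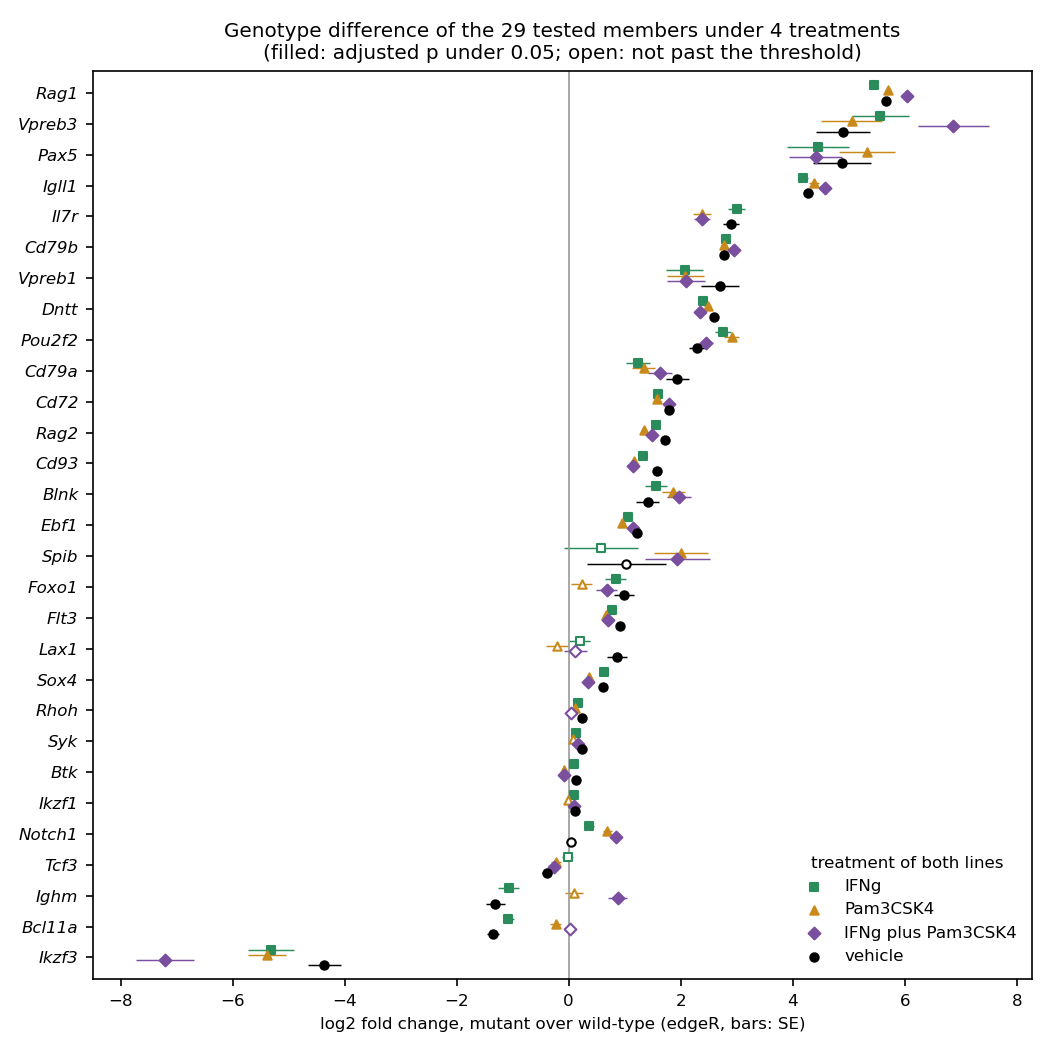
Log2 fold change of mutant over wild-type cells (x axis, bars are SE) for the 29 tested genes under IFNg (squares), Pam3CSK4 (triangles), both (diamonds) and vehicle (circles); filled marks passed the test and open ones did not. Most genes keep their side of 0 under all 4 treatments, from Rag1 at the top to Ikzf3 at the bottom, and Ighm crosses from -1.31 with vehicle to 0.88 with both agents.

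Within mutant cells IFNg and the combination lowered most of the B lineage genes that they changed, while the changes with Pam3CSK4 were more mixed. The 3 comparisons share the mutant vehicle libraries. With IFNg 16 of 29 genes changed, 2 higher and 14 lower, beside 33.2% of all genes (18.3% higher, 14.9% lower). The median log2 change of the 29 was -0.19. Rag2 fell to 52.3, 55.0, 54.6 and 52.8 CPM with IFNg, against 91.8, 87.1, 84.4 and 85.7 CPM with vehicle (log2 -0.70 ± 0.05, adjusted p = 1.1e-13). Igll1 fell to 30.5, 33.4, 35 and 29 CPM, against 51.8, 48.2, 50.2 and 48.1 CPM with vehicle (log2 -0.63 ± 0.07), and Rag1 to 87.8 ± 1.96 CPM, against 114 ± 1.41 CPM (log2 -0.37 ± 0.04). Neither gene had a treated library in the range of its vehicle libraries. Foxo1 stood at 0.965, 1.93, 1.94 and 1.98 CPM with IFNg, against 2.56, 2.41, 2.43 and 3.20 CPM with vehicle (log2 -0.64 ± 0.17, adjusted p = 0.00346), with IFNg library 1 far below the rest. Lax1 changed by -0.60 ± 0.18 (adjusted p = 0.00892, or 0.0558 without IFNg library 3) and Cd79a by -0.59 ± 0.19 (0.0126, or 0.0517 without vehicle library 3). Pou2f2 rose to 8.18, 8.24, 6.81 and 8.12 CPM, against 3.60, 2.61, 2.90 and 3.45 CPM with vehicle (log2 1.31 ± 0.12, adjusted p = 9.9e-11). Notch1 also rose (0.28 ± 0.08), and Il7r at 10.3 ± 0.401 CPM did not pass the test against 11.1 ± 0.543 CPM with vehicle.

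Pam3CSK4 changed 19 of 29 genes in mutant cells, 7 higher and 12 lower, beside 24.3% of all genes (11.5% higher, 12.8% lower). The shares of the 29 were 24.1% higher and 41.4% lower, and their median log2 change was -0.13. The recombinase subunits moved apart: Rag1 rose to 151, 155, 153 and 155 CPM, against 115, 114, 112 and 114 CPM with vehicle (log2 0.43 ± 0.04, adjusted p = 1.8e-10), while Rag2 fell to 67.1, 69.6, 68.8 and 74.6 CPM, against 91.8, 87.1, 84.4 and 85.7 CPM (log2 -0.32 ± 0.05, adjusted p = 6.9e-06). Il7r fell to 5.51, 5.75, 6.64 and 6.04 CPM, against 10.9, 11.0, 11.8 and 10.6 CPM (log2 -0.89 ± 0.13, adjusted p = 2.7e-06). All 4 treated libraries lay well below the vehicle ones. Bcl11a rose to 5.62, 6.45, 6.17 and 5.16 CPM, against 2.90, 2.95, 2.36 and 2.18 CPM (log2 1.17 ± 0.11), and Ighm to 1.20, 1.14, 1.38 and 1.93 CPM, against 0.698, 0.662, 0.649 and 0.691 CPM (log2 1.05 ± 0.18). Pou2f2 rose by log2 1.76 ± 0.12 and Notch1 by 0.67 ± 0.08, at 32.4 ± 2.58 CPM with Pam3CSK4 and 20.4 ± 1.63 CPM with vehicle. Lax1 fell to 0.763, 0.906, 0.82 and 0.753 CPM, against 1.49, 1.58, 1.65 and 1.36 CPM (log2 -0.91 ± 0.19). Its libraries did not overlap. Spib had 60 counts in the treated and 16 in the vehicle libraries, but it passed the count filter through this treated group and so had to be higher there.

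Both agents together changed 19 of 29 genes in mutant cells, 5 higher and 14 lower, beside 43.8% of all genes (23.7% higher, 20.1% lower). The median log2 change was -0.25. Pou2f2 reached 14.5, 15.5, 14.8 and 17.8 CPM, against 3.60, 2.61, 2.90 and 3.45 CPM with vehicle (log2 2.31 ± 0.12, adjusted p = 1.2e-17). Notch1 reached 39.6, 43.4, 44.3 and 42.5 CPM, against 19.0, 21.0, 19.1 and 22.4 CPM (log2 1.06 ± 0.08, adjusted p = 6.1e-12). Rag1 rose by 0.58 ± 0.04 and Rag2 fell by 0.73 ± 0.05, so that Rag1 averaged 170 ± 9.33 CPM and Rag2 52.6 ± 1.83 CPM. Lax1 fell by log2 1.29 ± 0.19 and Foxo1 by 0.94 ± 0.17. Sox4 fell to 111, 110, 112 and 106 CPM, against 172, 174, 184 and 182 CPM with vehicle (log2 -0.70 ± 0.03, adjusted p = 8.2e-21). Ikzf3 had 1 count with both agents and 20 with vehicle in mutant libraries, 19.9-fold lower with an interval of 3.18 to 824. Ebf1 stood at 71.8 ± 1.98 CPM with IFNg, 72.0 ± 1.52 with Pam3CSK4, 75.1 ± 4.72 with both and 72.2 ± 3.14 with vehicle, and passed no test within mutant cells, and neither did Tcf3, Blnk, Vpreb1, Vpreb3 and Pax5.

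Within wild-type cells Pou2f2 also rose with each agent. The 3 comparisons share the wild-type vehicle libraries, in which the share of counts from small structural and mitochondrial RNAs was 24.0 ± 4.17%, against 15.9 ± 1.87% with IFNg, 14.8 ± 1.47% with Pam3CSK4 and 13.6 ± 0.612% with both. With IFNg 13 of 29 genes changed, 4 higher and 9 lower, beside 35.4% of all genes (17.8% higher, 17.6% lower). Rag2 fell to 18.2, 18.1, 18.4 and 18.3 CPM, against 30.8, 26.2, 23.4 and 25.9 CPM with vehicle (log2 -0.54 ± 0.05). Ikzf3 fell to 1.08, 0.984, 0.912 and 0.889 CPM, against 1.28, 2.11, 1.96 and 1.88 CPM (log2 -0.91 ± 0.21), and Igll1 changed by -0.54 ± 0.11 and Ighm by -0.66 ± 0.16. In each of these genes all IFNg libraries lay below all vehicle libraries. Pou2f2 rose to 0.977, 1.07, 1.06 and 1.47 CPM, against 0.709, 0.405, 0.769 and 0.691 CPM (log2 0.86 ± 0.18). Foxo1 passed at log2 -0.49 ± 0.19 (adjusted p = 0.043), and leaving out any of 5 libraries (IFNg 1, 3 or 4, vehicle 2 or 3) gave adjusted p between 0.0544 and 0.185. With Pam3CSK4 8 of 29 changed, 6 higher and 2 lower, beside 22.0% of all genes (10.4% higher, 11.7% lower). This count was 2 when the fit included that RNA share as a covariate and 5 without 4 libraries of high share, among them wild-type vehicle 1 and 4. Rag1 rose to 3.20, 2.92, 2.91 and 2.71 CPM, against 2.17, 2.21, 2.02 and 2.67 CPM with vehicle (log2 0.39 ± 0.07, adjusted p = 0.00019), and Pou2f2 rose by 1.14 ± 0.17. The calls of Ebf1 (0.26 ± 0.05), Cd72 (0.21 ± 0.05), Igll1 (-0.42 ± 0.11) and Sox4 (-0.11 ± 0.03) were lost with that covariate, at adjusted p of 0.503, 0.125, 0.435 and 0.126. Both agents changed 17 of 29, 6 higher and 11 lower, beside 43.7% of all genes (21.2% higher, 22.4% lower). Pou2f2 rose to 2.98, 2.84, 2.88 and 2.71 CPM (log2 2.15 ± 0.16 against vehicle), and Igll1 fell to 1.17, 1.35, 1.05 and 1.22 CPM (log2 -1.11 ± 0.12). Ighm fell by 0.93 ± 0.17, Ikzf3 fell by 0.90 ± 0.21, Foxo1 fell by 0.64 ± 0.19 and Rag2 fell by 0.51 ± 0.05.

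Whether a response differed between the lines was tested directly, as the mutant minus the wild-type log2 response. For IFNg 1 of 29 genes passed, as did 1.65% of all genes (0.827% higher, 0.820% lower): Cd93, at -0.25 ± 0.06 (adjusted p = 0.0181), or 0.0607 without mutant IFNg library 1. For Pam3CSK4 15 passed, 4 higher and 11 lower, beside 26.6% of all genes (14.3% higher, 12.3% lower). This count was 8 with the covariate. For both agents 11 passed, 4 higher and 7 lower, beside 15.8% of all genes (8.80% higher, 6.99% lower). Ighm differed most among those called upward, by 1.41 ± 0.24 (adjusted p = 4.8e-05) with Pam3CSK4 and 2.19 ± 0.24 (2.7e-08) with both. It rose in mutant cells, to 1.73, 1.56, 1.31 and 1.90 CPM with both agents, and fell in wild-type cells, to 0.912, 0.788, 0.814 and 1.03 CPM. Bcl11a differed by 1.12 ± 0.14 and 1.38 ± 0.14: with both agents it stood at 6.17 ± 0.338 CPM in mutant and 6.06 ± 0.961 CPM in wild-type libraries, while with vehicle it stood at 2.60 ± 0.384 CPM in mutant and 6.61 ± 0.725 CPM in wild-type libraries. Notch1 differed by 0.64 ± 0.12 and 0.79 ± 0.12. Rag1 differed by 0.37 ± 0.08 with both agents (adjusted p = 0.00143), or by 0.31 (0.0516) without 4 libraries of high structural RNA share (wild-type vehicle 1 and 4, mutant with both agents 3 and 4).

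Lower responses in mutant cells were found for Lax1 with Pam3CSK4 (-1.08 ± 0.27, adjusted p = 0.00277), and for Cd93 with Pam3CSK4 (-0.42 ± 0.06) and with both agents (-0.43 ± 0.06). Foxo1 differed by -0.76 ± 0.25 with Pam3CSK4 (adjusted p = 0.0231), but leaving out mutant Pam3CSK4 library 4, mutant vehicle 4, wild-type Pam3CSK4 4 or wild-type vehicle 1 gave 0.0502 to 0.066, and the covariate 0.656. Pou2f2 differed by 0.61 ± 0.22 with Pam3CSK4 (0.0317), and this call was lost without any one of 8 libraries (mutant Pam3CSK4 3, mutant vehicle 2 or 3, wild-type Pam3CSK4 1 or 3, wild-type vehicle 1, 3 or 4), at 0.0562 to 0.108. Ikzf3 differed by -2.86 ± 0.91 with both agents (0.0292), a value that rests on 1 count in the mutant libraries and was lost without mutant libraries 1, 3 or 4 with both agents or mutant vehicle library 4, at 0.0628 to 0.0771. The Il7r response to Pam3CSK4 differed by -0.52 ± 0.22, which did not pass (adjusted p = 0.0725).

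**Figure D4:**
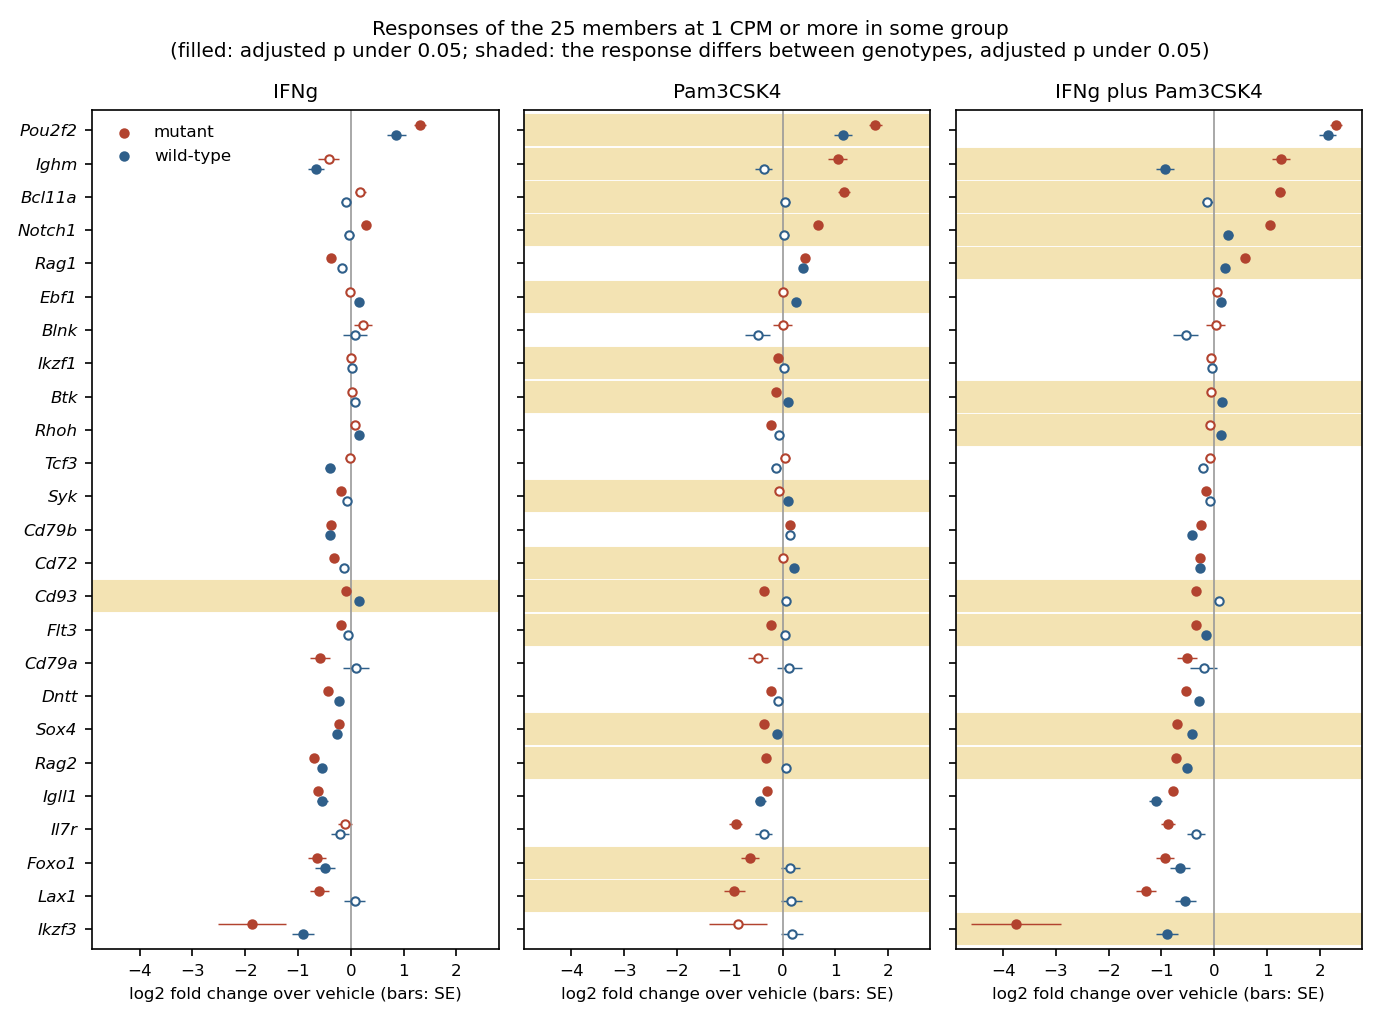
Log2 fold change over vehicle (x axis, bars are SE) in mutant (red) and wild-type (blue) cells for the 25 tested genes that averaged 1 CPM or more in some group, with IFNg, Pam3CSK4 or both; filled marks passed the test, and shading marks genes whose response differed between the lines. Shading covers Cd93 under IFNg and many genes in the other panels, among them Ighm, Bcl11a and Notch1 on the upper side.

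Per length the 29 genes spanned several orders of magnitude. In mutant vehicle libraries the leading deposited TPM levels were 33.4 for Flt3, 23.8 for Igll1, 13.9 for Ikzf1, 12 for Sox4, 11.5 for Btk, 10.4 for Rag2, 10.3 for Cd72 and 10.0 for Cd79b. In wild-type vehicle libraries Flt3 led at 18.4 TPM, before Ikzf1 at 13.4, Btk at 10.7, Tcf3 at 9.04, Sox4 at 8.09, Syk at 7.03, Rhoh at 3.62 and Rag2 at 3.35 TPM, and Igll1 stood at 1.28 TPM. Small RNAs take much of the TPM total, so these levels are compared within a line only.

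**Figure D5:**
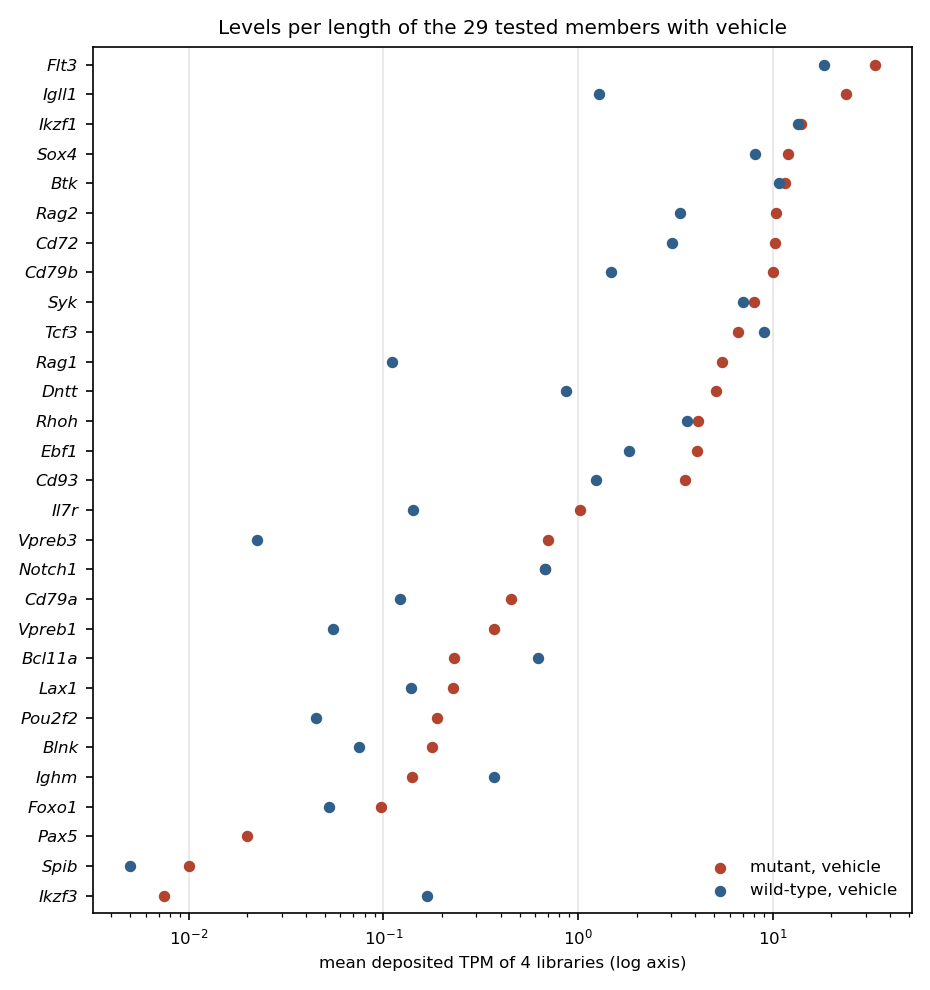
Mean deposited TPM of 4 vehicle libraries (log axis) for the 29 tested genes in mutant (red) and wild-type (blue) cells, ordered by the mutant level; Pax5 has no wild-type point because its TPM is listed at 0 there. The mutant points run from 33.4 TPM for Flt3 down to 0.0075 TPM for Ikzf3.

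Other genes of the same pathways were counted from lists written by hand, beside the 24.4% of all genes that were higher and the 29.3% that were lower with vehicle. Of 12 partners of the recombinase in V(D)J joining, 4 were higher and 4 lower in mutant than in wild-type vehicle libraries, with a median log2 fold change of -0.06. Xrcc5 (Ku80), which holds DNA ends, was higher by 0.35 ± 0.06. Polm was lower by 0.83 ± 0.14 (1.41 CPM in mutant and 2.51 CPM in wild-type) and Hmgb2 by 0.62 ± 0.04 (443 and 681 CPM). The DNA ligase Lig4 was lower by 0.50 ± 0.08 (6.29 CPM in mutant and 8.90 CPM in wild-type). Of 19 further genes of pre-B and B cell receptor signalling, 17 were tested, 8 higher and 4 lower (median 0.05). The PI3K subunit gene Pik3cd was higher by 0.67 ± 0.05, and the inhibitory Fc receptor gene Fcgr2b was lower, at 21.4 CPM in mutant and 48.9 CPM in wild-type libraries (log2 -1.19 ± 0.06). Of 19 genes of lymphoid-primed progenitors 17 were tested, 7 higher and 6 lower (median -0.01). Mef2c, a lymphoid factor, was higher by 1.78 ± 0.05, while the factor Ets1 was lower by 2.02 ± 0.09. Ly6d, a surface marker of B-biased common lymphoid progenitors, was nearly absent in mutant cells at 0.0174 CPM, against 1.39 CPM in wild-type cells. It passed the count filter through its wild-type groups, so it could be tested only as lower in mutant cells.

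Of 20 genes of later B cells 13 were tested, 5 higher and 3 lower (median log2 fold change 0.0), where 53.7% of all genes were called. Cd180, a TLR4-like receptor of B cells, averaged 7.07 CPM in mutant and 0.256 CPM in wild-type vehicle libraries (log2 4.77 ± 0.16), and Tnfrsf13b (TACI) 30.9 and 5.36 CPM (2.53 ± 0.06). The syndecan gene Sdc1, a plasma cell marker that other cells also carry, averaged 217 CPM in mutant and 48.3 CPM in wild-type libraries. Cd24a, which is on this list but is not restricted to later B cells, was lower, at 6.43 CPM in mutant and 12.5 CPM in wild-type libraries (-0.95 ± 0.08). Xbp1 (-0.38 ± 0.04) and Mzb1 (-0.22 ± 0.05) were lower too. Of 264 immunoglobulin genes 195 had no counts in any library and 7 were tested. Besides Ighm these were variable segments: Ighv1-23 averaged 1.41 CPM in mutant and 0.0169 CPM in wild-type libraries (log2 6.08 ± 0.45), and Ighv1-7, Igkv4-90 and Igkv4-91 were also higher, while Ighv1-75 and Ighv1-77 did not pass the test. Variable segments are near copies of each other, so single segments are uncertain, and segments that passed the filter through the mutant libraries had to be higher there. Of 226 T cell receptor genes 182 had no counts, 3 were tested and 1 was higher in mutant cells.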

How the data were processed

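Gene-level expected counts and TPM were read from the RSEM output that the authors deposited for each library, under the names in the file headers. STAR 2.5.2b, RSEM 1.3.0 and the build mm10 are named in the submitters' processing notes. The RSEM model divides reads shared between genes. Whether counting used strand is not given in the sources used here. By contrast, the library kit was a stranded one for total RNA with removal of ribosomal RNA, per the labels' protocols. Of 55487 identifiers, 55394 matched GENCODE vM21 without version numbers. Of non-zero expected counts, 11.07% were not whole, and all were rounded.

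Filtering by filterByExpr on the 8 groups left 14869 genes. After TMM scaling, 1 edgeR quasi-likelihood model with a mean per group and robust dispersions was fitted to all 32 libraries, with 24 residual degrees of freedom (common biological coefficient of variation 7.22%). It gave 13 contrasts: mutant against wild-type in 4 treatments, 3 treatments against vehicle in each line, and 3 differences of the response between lines. P-values were adjusted by Benjamini-Hochberg over all 14869 genes within a contrast. SE is the log2 fold change divided by the square root of F. Where a group had no counts, folds were computed against a floor of 3 counts over its 4 libraries, and counts of 1 to 3 got a 95% exact interval from the binomial distribution (Clopper-Pearson). Floors and intervals cover counting error only.

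Members, lists and the rule for named genes were chosen with earlier results of these data known. All 35 genes are accounted for. The rule names, for mutant against wild-type with vehicle, up to 12 genes of greatest change among those called with at least 2-fold change, no overlap and 1 CPM or more in a group. In each treatment response and response difference it names up to 6 called genes at 1 CPM or more, and from each further list up to 3 rises and 3 falls; the text gives a selection of the last. Alternatives were RLE size factors, DESeq2, no filter, fits on the compared libraries alone, the structural RNA share (12.8 to 30.3% of counts) as a covariate, its genes left out, a replicate block and leaving out each library. The fit was also run on simulated counts with known changes, and the outcome is not given here. Same-numbered libraries of different groups did not deviate together (median r 0.009 over 112 pairs, against -0.003 over 336 pairs of other numbers), so numbers were not taken as pairs. Tools were R 4.3.3, edgeR 4.0.16, limma 3.58.1, DESeq2 1.42.0, the data.table package (1.17.8), Python 3.11.15, scipy 1.17.1, pandas 2.3.3, matplotlib 3.10.9 and numpy 2.4.6.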

Additional observations from a re-analysis of the deposited data

Results flagged for a closer look

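In 7 of 174 sets of 4 libraries with a mean of 1 CPM or more (4.02%), 1 library lay far from the other 3 by Dixon's criterion, which chance meets in about 5% of groups. Among mutant cells, Cd79a was high at 1.6 CPM in library 1 with both agents, where the others had 1.14 to 1.19 CPM. In mutant IFNg library 1, Foxo1 was low at 0.965 CPM (the others 1.93 to 1.98 CPM) and Blnk was low at 0.983 CPM. Pou2f2 was low at 6.81 CPM in mutant IFNg library 3, Btk was high at 90.7 CPM in mutant vehicle library 1, and Cd93 was high at 61.6 CPM in mutant Pam3CSK4 library 2. Among wild-type cells, Flt3 was low at 183 CPM in IFNg library 1.

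The response differed between the lines in 27 cases by the test of the difference (mutant minus wild-type log2 response, edgeR adjusted p under 0.05). With IFNg this was Cd93 (-0.25). With Pam3CSK4 the difference was positive for Ighm (1.41), Bcl11a (1.12), Notch1 (0.64) and Pou2f2 (0.61). It was negative for Lax1 (-1.08), Foxo1 (-0.76), Cd93 (-0.42), Rag2 (-0.38), Ebf1 (-0.26), Sox4 (-0.25), Flt3 (-0.25), Btk (-0.23), Cd72 (-0.22), Syk (-0.17) and Ikzf1 (-0.12). With both agents it was positive for Ighm (2.19), Bcl11a (1.38), Notch1 (0.79) and Rag1 (0.37). It was negative for Ikzf3 (-2.86), Cd93 (-0.43), Sox4 (-0.27), Btk (-0.22), Rag2 (-0.22), Flt3 (-0.20) and Rhoh (-0.19). These contrasts share the vehicle libraries of both lines. The structural RNA share differed between vehicle (25.8 ± 1.78% in mutant and 24.0 ± 4.17% in wild-type libraries) and Pam3CSK4 libraries (27.3 ± 2.12% in mutant and 14.8 ± 1.47% in wild-type libraries). With Pam3CSK4 15 genes differed; 8 did with that share as a covariate, 14 with its genes left out and 13 without the 4 libraries of high share. With both agents 11 differed, and 9, 11 and 10 did under these settings.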

How the results depend on the processing

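Of 1068 refits of the named genes under the alternatives, 1024 kept direction and call, 44 kept direction and lost the call, and none changed direction. Of 228 counts of genes called among the 29, 220 stayed within 1.5 times the reported count. For Pam3CSK4 in wild-type cells the count of 8 became 5 without a filter on low counts, 4 on the compared libraries alone, 2 with the share of structural RNA as covariate and 5 without 4 libraries of high share (an alternative chosen after seeing the data). For the difference of the Pam3CSK4 response it was 8 with the covariate, against 15. For the difference of the IFNg response the count of 1 became 0 on the compared libraries alone and 0 to 3 when 1 library was left out (0 without mutant IFNg library 1, 3 without wild-type vehicle library 1). The cause was not tested. Leaving out 1 library gave 27 in all cases for mutant against wild-type with vehicle, 26 with IFNg, 21 to 25 with Pam3CSK4 and 23 to 26 with both agents. Within mutant cells it gave 13 to 16 with IFNg, 17 to 19 with Pam3CSK4 and 18 to 21 with both, and within wild-type cells 11 to 15, 6 to 8 and 14 to 18. For the response differences it gave 13 to 15 with Pam3CSK4 and 9 to 12 with both. With the replicate number as a block, the count for the combined response difference was 12, against 11 without, the other 12 counts did not move, and no call of a named gene changed. Depth limits Pax5, the Vpreb genes, Spib and Ikzf3, which had few counts in at least 1 line, and the 6 genes under the filter.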

Other observations

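Fcer2a, which encodes CD23, the low-affinity IgE receptor of mature B cells, was on the list of mature B cell markers and is described here after its values were seen. It had no counts in any vehicle or IFNg library of either line. With Pam3CSK4 it reached 2.11, 2.17, 1.80 and 2.3 CPM in mutant libraries, against 0.193, 0.146, 0.164 and 0.0546 CPM in wild-type libraries. With both agents it reached 1.3, 1.24, 0.931 and 1.19 CPM in mutant libraries, against 0.0344, 0, 0.0145 and 0.0776 CPM in wild-type libraries. With a floor of 3 counts over the vehicle group, this was at least 160-fold higher with Pam3CSK4 than with vehicle in mutant cells and at least 10.2-fold in wild-type cells, and with both agents at least 90.6-fold in mutant cells and at least 2.11-fold in wild-type cells. Mutant and wild-type libraries did not overlap under either treatment. The gene passed the count filter through these mutant groups, so it had to be higher there, and no test is given. Ms4a1 (CD20), from the same list, averaged 0.0258 CPM over the 16 mutant libraries and 0.0176 CPM over the 16 wild-type libraries.

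Gata3, a factor of T cells and innate lymphoid cells on the list of T cell markers, averaged 4.42 CPM over the mutant libraries (3.06 to 5.49) and 0.0143 CPM over the wild-type libraries (0 to 0.0506). Lck, a kinase of T cells on the same list, averaged 2.76 CPM in mutant (1.66 to 4.12) and 4.33 CPM in wild-type libraries (3.25 to 6). Both were chosen after their values were seen and have no test here.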
